A study of Mus musculus with 20 samples.

Results

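The sulfotransferase family was followed here through 8 genes, Sult1a1, Sult1b1, Sult1c2, Sult1d1, Sult1e1, Sult2a2, Sult3a1 and Sult5a1, in mouse liver. The members were taken as all probe sets whose only gene symbol is 1 of these 8, which gave 9 probe sets, 2 of them for Sult1d1. They are 8 of the 17097 genes that the arrays measured. RNA from the livers of 20 mice aged 11 weeks was hybridised to Affymetrix arrays, 1 array for each animal and 5 animals in each of 4 groups. The 4 groups were progeroid (Ercc1Δ/-) mice on restricted food, progeroid mice on the control diet, wild type littermates on restricted food and wild type littermates on the control diet. Ercc1Δ/- mice carry 1 truncated and 1 deleted allele of Ercc1, a DNA repair endonuclease subunit, and age early, and the labels name no promoter or cell type that limits the lesion. All mice were F1 hybrids of C57BL6J and FVB parents and ate AIN93G pellets. Food was cut by 10% from 7 weeks of age and by 30% from 9 weeks, which left wild type mice 2.1 g per day, against 3.0 g per day eaten by freely fed wild type mice. The protocol gives 1.6 g per day at 30% without naming a genotype. Food was given just before the dark period, and the hour at which livers were taken is not given in the sources used here.

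Cytosolic sulfotransferases move a sulfonate group from the donor PAPS (3′-phosphoadenosine 5′-phosphosulfate) onto small molecules such as phenols, catecholamines, thyroid hormones, steroids and bile acids. The product is more soluble in water and usually loses its hormone activity, so that these enzymes both clear foreign compounds and switch hormones off. In rodent liver several of them differ strongly between the sexes, and they compete for some substrates with the UDP-glucuronosyltransferases.

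Levels are given as log2 values, on which a step of 1 is a doubling of the array signal, and each difference is in the same log2 units with its standard error (SE). A gene is called risen or fallen where its limma p-value, adjusted over all 17097 genes, was under 0.05. Values of whole liver cannot tell fewer cells of a type from less RNA per cell. Levels of different genes are not set against each other, because their probe sets differ in brightness. Ercc1 itself averaged 4.80 in progeroid restricted and 5.30 in progeroid control livers, against 6.15 in wild type restricted and 6.54 in wild type control livers. The Y-linked Eif2s3y lay between 9.57 and 10.19 and Xist between 3.82 and 4.50 in all 20 livers, the pattern of males. As a guide to the dim end of the scale, 4 kidney tubule genes that liver should lack had values between 2.46 and 4.06. Of the 8 members, 7 averaged at least 5, and Sult2a2 did not. The 8 hepatocyte markers, such as Alb and Apoa1, averaged between 12.20 and 14.32.

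Food restriction raised more members than it lowered in both genotypes. In progeroid mice 4 of the 8 members rose and 1 fell, while 6.94% of all genes rose and 5.07% fell (12.0% in all). In wild type mice 5 rose and 1 fell, while 9.92% of all genes rose and 12.6% fell (22.5% in all). The groups compared did not overlap for 3 members in progeroid mice and for 6 in wild type mice, which was so for 8.97% and 15.7% of all genes. The median diet change of the members was 0.42 in progeroid and 0.72 in wild type mice, and that of all genes was -0.014 and -0.030. The members were chosen with earlier results of these data known. Their counts and medians beside all genes, here and between genotypes, are therefore a description and not an independent test. Sult2a8, a liver sulfotransferase outside the 8, fell with restriction in both genotypes (-0.48 in progeroid and -1.37 in wild type mice). Sult1a1, Sult1d1, Sult1e1 and Sult3a1 rose in both genotypes, Sult2a2 passed the test in wild type mice only, and Sult5a1 fell in both. Whether the diet effects differ between the genotypes was tested directly. Of the 8 members only Sult1e1 passed that test, with a smaller diet effect in progeroid mice. Of all genes 1.40% passed it, 0.374% in that direction and 1.03% in the other. At an unadjusted p under 0.05, 4 of the 8 members and 14.2% of all genes passed it.

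Genotype moved the members in both directions. On the control diet 3 members (Sult1a1, Sult1d1 and Sult1e1) were higher in progeroid livers and 2 (Sult1c2 and Sult5a1) were lower, while 6.70% of all genes were higher and 4.32% lower (11.0% in all). On restricted food 0 members were higher by limma, also at an unadjusted p under 0.05, and 3 (Sult1c2, Sult3a1 and Sult5a1) were lower, while 11.8% of all genes were higher and 5.44% lower (17.2% in all). The genotypes did not overlap for 4 members on the control diet and for 1 on restricted food, which was so for 9.35% and 11.9% of all genes. The median genotype change of the members was 0.16 on the control diet and -0.63 on restricted food, and that of all genes was -0.014 and -0.0026. Centring each array on its median moved the median change of all genes by -0.10 on the control diet and -0.17 on restricted food. It took these medians away from no change, to -0.117 and -0.175, so the counts between genotypes after centring carry this downward shift. They show how far the calls depend on scaling and are not a correction. With centring 764 genes were higher and 2798 lower in progeroid livers on the control diet, beside 1145 and 738 without it. On restricted food it gave 1158 higher and 6513 lower, beside 2018 and 930. For the diet effect in progeroid mice centring gave 940 higher and 1133 lower, beside 1186 and 867, and in wild type mice it gave 1924 and 1688, beside 1696 and 2146. For the difference of the diet effects it gave 106 and 83, beside 176 and 64. Among the members it ended 1 call, that of Sult1a1 on the control diet. The comparisons share groups: the wild type control livers serve both the genotype effect on the control diet and the diet effect in wild type mice.

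**Figure D1:**
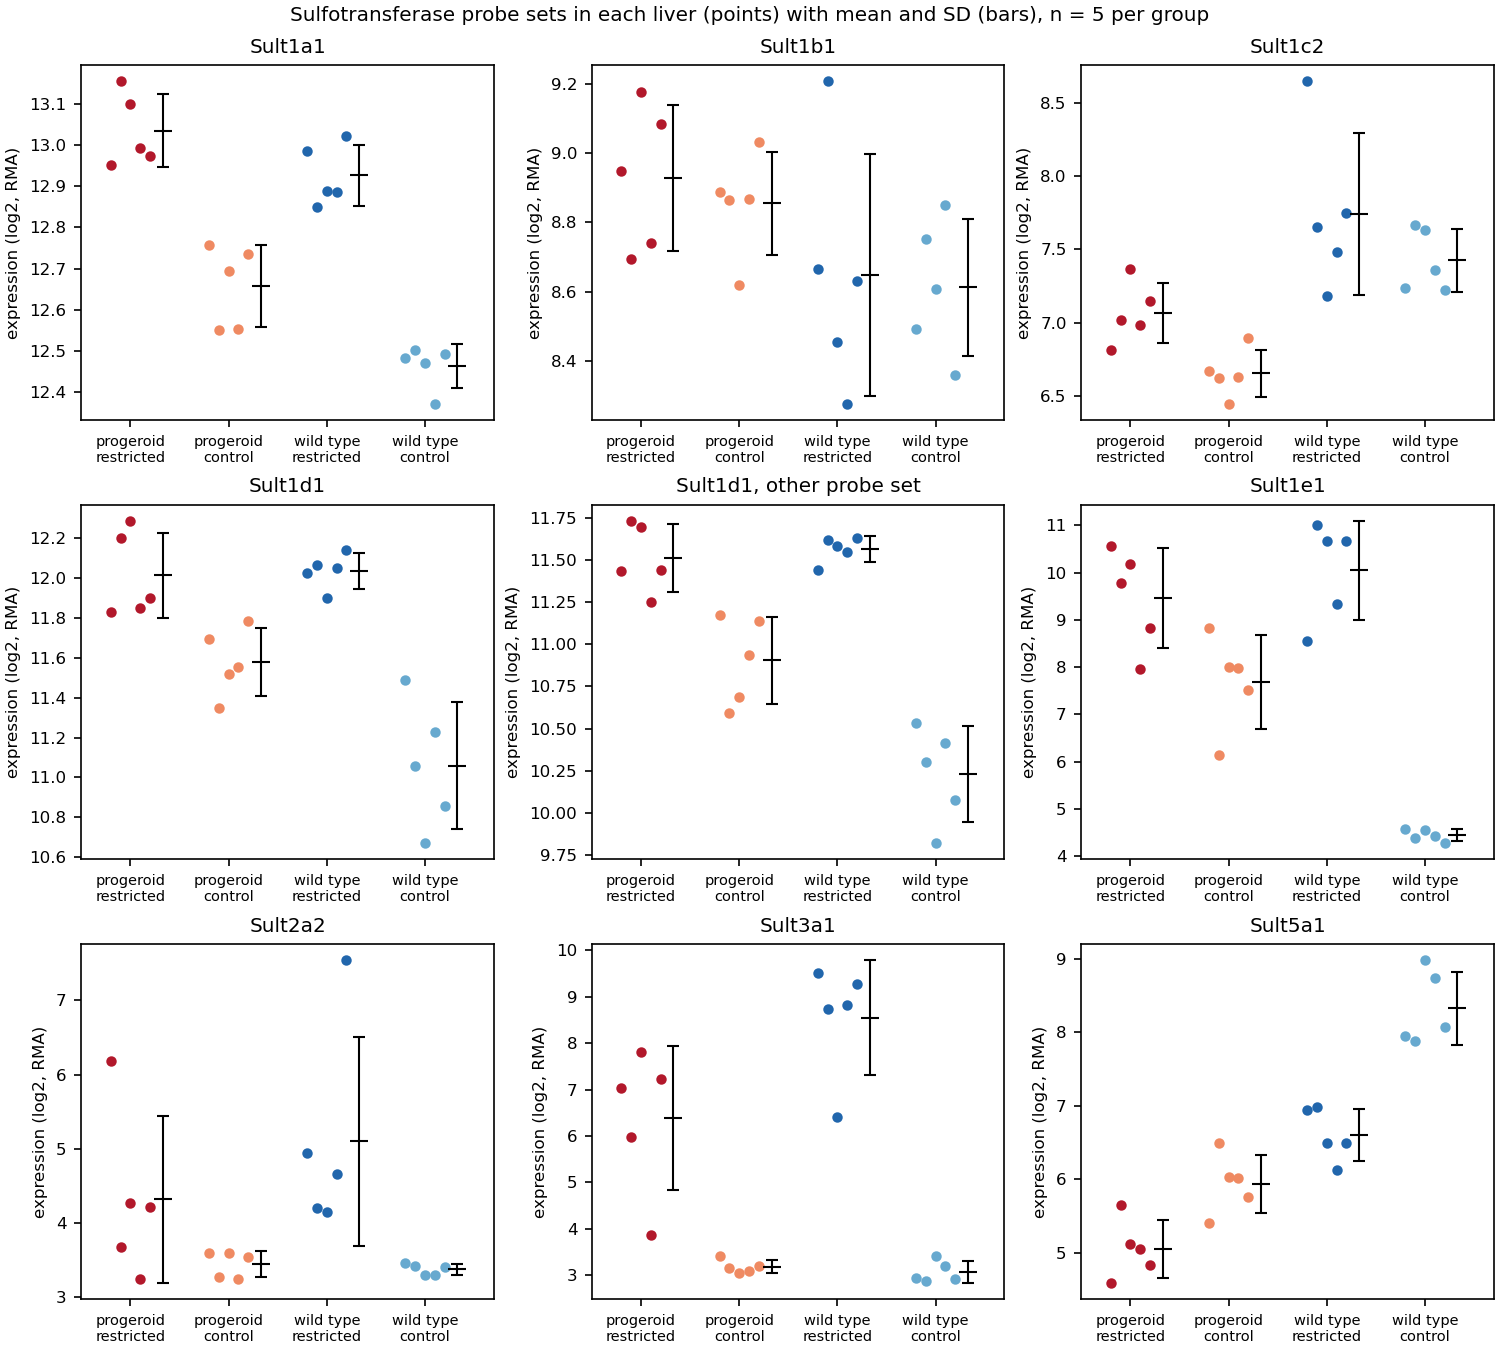
Log2 level (y axis) of each of the 8 sulfotransferase genes in every animal (points) with the group mean and SD (bars, n = 5), in progeroid restricted, progeroid control, wild type restricted and wild type control livers. Each panel has its own y axis, and Sult1d1 has a panel for each of its 2 probe sets. Sult1e1 and Sult3a1 have the widest spread of group means, 5.60 and 5.48, while the group means of Sult1b1 lie within 0.32 of each other.

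**Figure D2:**
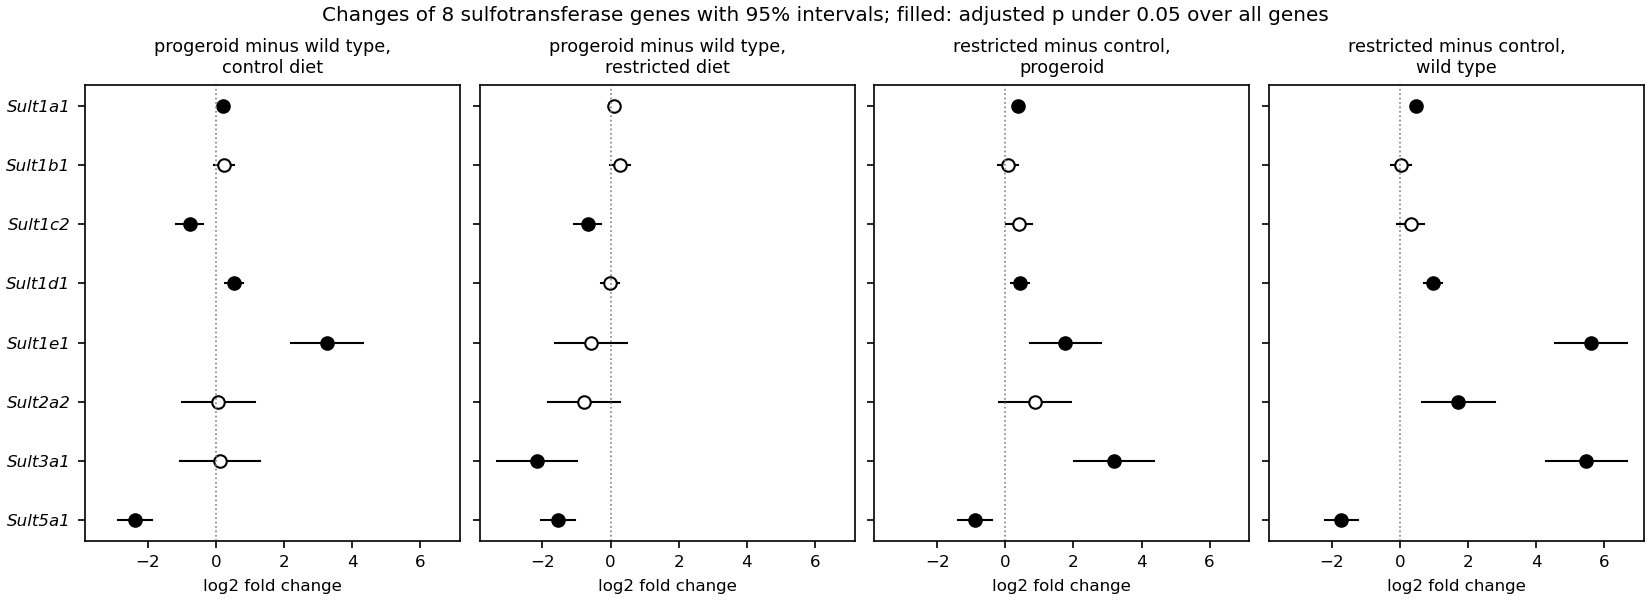
Log2 fold change (x axis) of each of the 8 genes with its 95% interval in 4 panels: progeroid minus wild type on the control diet and on restricted food, and restricted minus control diet in progeroid and in wild type mice. Filled marks have an adjusted p under 0.05. Sult1e1 and Sult3a1 lie at 1.77 and 3.20 for diet in progeroid mice and at 5.60 and 5.48 in wild type mice, and every interval of Sult1b1 crosses 0.

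Sult1e1, the estrogen sulfotransferase, which inactivates estrogens by sulfonating them, had its lowest levels in wild type control livers and was far higher in the other 3 groups. The 5 progeroid restricted livers had log2 values of 10.55, 9.78, 10.17, 7.96 and 8.83, and the 5 progeroid control livers had 8.83, 6.13, 8.01, 7.98 and 7.50. The wild type restricted livers had 8.56, 11.00, 10.67, 9.34 and 10.66, and the wild type control livers had 4.57, 4.39, 4.56, 4.43 and 4.27. Every wild type control value lay below every value of the other 3 groups, and the wild type control livers were also much more alike, with a standard deviation (SD) of 0.13 against 0.99 to 1.05 in the others. The wild type control values lay just above the range of the kidney genes (2.46 to 4.06). So near the dim end folds are understated and the spread may be too, which limits the wild type fold and the difference of the diet effects. Restriction raised Sult1e1 48.6-fold in wild type mice (5.60 ± 0.51 SE, adjusted p = 1.79e-07) and 3.40-fold in progeroid mice (1.77 ± 0.51, adjusted p = 0.0267), where the groups overlapped. The diet effect was smaller in progeroid mice by 3.84 ± 0.72 (95% interval of the difference -5.33 to -2.34, adjusted p = 0.0113). On restricted food the genotypes overlapped, with a difference of -0.59 (95% interval -1.64 to 0.47, adjusted p = 0.488), whereas on the control diet progeroid livers were higher by 3.25 ± 0.51 (adjusted p = 0.000202). The call of the diet effect in progeroid mice rested on single animals: it was lost without restricted animal 362, 365 or 366 or control animal 323, with adjusted p between 0.0598 and 0.0848. It was also lost when only the 2 progeroid groups were fitted (adjusted p = 0.0551) and with an intensity trend and robust estimation (adjusted p = 0.0532).

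The 250 bases before the annotated start of Sult1e1 are shown because no other member passed the test of the difference of the diet effects. They lie at chr5:87591612-87591861 on the minus strand (GRCm38.p6, RefSeq) and are written 5′ to 3′ toward the start, with a match to a searched motif in capitals. The neighbour Sult1d1, at chr5:87569007-87569256 on the minus strand, follows for comparison.
Sult1e1: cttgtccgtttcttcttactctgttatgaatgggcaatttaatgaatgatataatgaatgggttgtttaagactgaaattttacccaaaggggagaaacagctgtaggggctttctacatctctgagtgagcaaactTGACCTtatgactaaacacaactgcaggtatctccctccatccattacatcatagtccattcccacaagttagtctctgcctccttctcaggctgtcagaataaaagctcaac
Sult1d1: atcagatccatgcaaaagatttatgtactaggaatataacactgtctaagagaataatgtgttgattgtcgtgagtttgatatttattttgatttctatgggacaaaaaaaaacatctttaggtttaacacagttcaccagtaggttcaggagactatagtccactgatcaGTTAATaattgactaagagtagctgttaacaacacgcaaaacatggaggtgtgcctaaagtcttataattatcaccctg
Upstream windows of this length were searched on both strands for TATAAA (a core promoter element), AGGTCA (a core of nuclear receptor sites), TTCNNNGAA (a STAT5 site) and GTTAAT (the start of an HNF1 site), none of which contains another. Of all 32851 such windows in the table, 12.4% held TATAAA, 14.0% AGGTCA, 7.02% TTCNNNGAA and 6.43% GTTAAT. The Sult1e1 window held AGGTCA on the opposite strand, read as TGACCT, from 113 to 108 bases before the start. The Sult1d1 window held GTTAAT from 79 to 74 bases before its start. Neither match was particular to these genes. A window of Sult1b1, which was called in no comparison, held TGACCT from 123 to 118 bases before its start. The Sult1a1 window held GTTAAT from 232 to 227 bases before its start. A match describes letters only and is not evidence that a factor binds there.

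Sult1b1, Sult1d1 and Sult1e1 are neighbours on chromosome 5, between the glucuronosyltransferase genes Ugt2a1 and Ugt2a2 and the casein genes Csn1s1, Csn2 and Csn1s2a. Sult1d1 and Sult1e1 rose with restriction in both genotypes, and Sult1b1 did not pass the test in any comparison. Of the neighbours, Ugt2a1, Csn1s1, Csn2 and Csn1s2a had a probe set of their own. Among these 4, in the 5 comparisons, only Csn2, a milk protein gene, passed, with a rise of 0.35 (adjusted p = 0.0191) in restricted wild type mice. Ugt2a1, Csn1s1 and Csn1s2a had group means between 3.01 and 3.49, within the range of the kidney genes, so a change in them could go unseen.

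Sult3a1, which in mouse sulfonates amines, was near the dim end of the scale in both control diet groups and rose in both restricted groups. The progeroid restricted livers had log2 values of 7.03, 5.98, 7.81, 3.86 and 7.22, and the progeroid control livers had 3.42, 3.16, 3.05, 3.10 and 3.20. In wild type restricted livers the values were 9.50, 8.73, 6.41, 8.81 and 9.27, and the wild type control livers had 2.93, 2.88, 3.42, 3.19 and 2.91. All 10 restricted values lay above all 10 control diet values, although progeroid restricted animal 368, at 3.86, was within the range of the kidney genes. The rise with restriction was 9.17-fold in progeroid mice (3.20 ± 0.57 SE, adjusted p = 0.000928) and 44.6-fold in wild type mice (5.48 ± 0.57, adjusted p = 9.13e-07). Folds from so dim a start are understated on this scale. Their difference was -2.28 ± 0.80 (95% interval -3.95 to -0.61), and it did not pass (adjusted p = 0.180). On restricted food progeroid livers were lower by a factor of 4.48 (-2.16 ± 0.57, adjusted p = 0.0106), with overlap through the lowest wild type animal, and that call was lost when only the 2 restricted groups were fitted (adjusted p = 0.0612). The genotypes overlapped on the control diet (0.12, 95% interval -1.06 to 1.30, adjusted p = 0.930).

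The 250 bases before the start of Sult3a1, at chr10:33857472-33857721 on the plus strand (GRCm38.p6, RefSeq), are shown with the STAT5 motif in capitals, because this is the only member window that held it.
Sult3a1: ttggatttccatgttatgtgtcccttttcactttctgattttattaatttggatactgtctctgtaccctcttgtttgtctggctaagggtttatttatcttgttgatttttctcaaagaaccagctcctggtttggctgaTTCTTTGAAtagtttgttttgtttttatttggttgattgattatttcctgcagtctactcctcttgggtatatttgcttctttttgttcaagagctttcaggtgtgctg
The match, TTCTTTGAA, ran from 109 to 101 bases before the start. This window was picked for its match among 8 member windows, and 7.02% of all windows held the motif. The match is therefore no evidence that STAT5 binds there or acts on Sult3a1.

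Sult2a2 belongs to the hydroxysteroid sulfotransferases, which in mouse sulfonate steroids such as dehydroepiandrosterone and bile acids. It was dim in most livers. The progeroid restricted livers had 6.19, 3.68, 4.27, 3.25 and 4.22, and the progeroid control livers had 3.59, 3.28, 3.59, 3.24 and 3.54. Restricted wild type livers had 4.95, 4.21, 4.14, 4.66 and 7.54, and the wild type control livers had 3.47, 3.42, 3.30, 3.30 and 3.41. All 5 restricted wild type livers lay above all 5 wild type control livers, while in progeroid mice 1 restricted animal stood far above the rest and another was among the lowest. The rise with restriction was 3.29-fold in wild type mice (1.72 ± 0.51, adjusted p = 0.0189), and without wild type restricted animal 425 it was 1.11 (adjusted p = 0.0394). In progeroid mice the difference was 0.87 (95% interval -0.19 to 1.93, adjusted p = 0.307), and without restricted animal 362 it was 0.40. The genotype differences were 0.07 on the control diet (95% interval -0.99 to 1.13) and -0.78 on restricted food (95% interval -1.84 to 0.28), with adjusted p of 0.958 and 0.336. The second of these was -0.17 without wild type restricted animal 425 and -1.25 without progeroid restricted animal 362. The RefSeq table lists 8 Sult2a genes, and 2 of them had a probe set with a single symbol, so its signal may include near-identical copies and the assignment to Sult2a2 is uncertain.

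**Figure D3:**
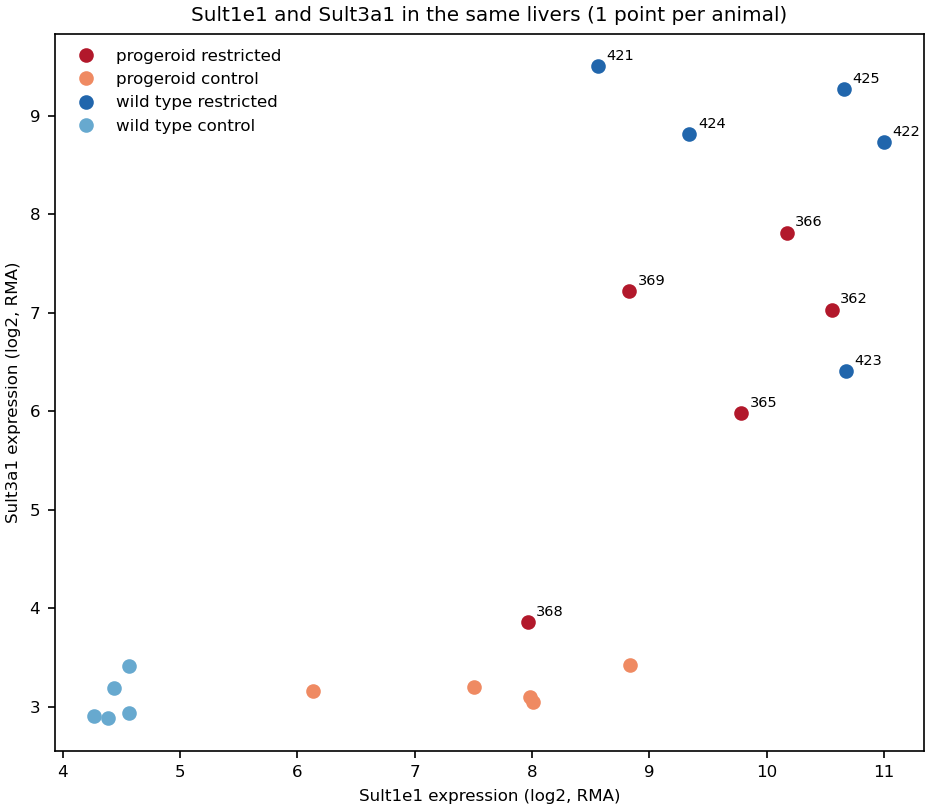
Log2 level of Sult3a1 against that of Sult1e1 in each of the 20 livers, coloured by group. The wild type control livers sit at the low end of both axes, and the progeroid control livers are spread along Sult1e1 between 6.13 and 8.83, with Sult3a1 between 3.05 and 3.42, within the range of the kidney genes.

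Within the progeroid restricted group animal 368 was the lowest for Sult1e1 (7.96), Sult2a2 (3.25) and Sult3a1 (3.86). It was also the lowest by the second probe set of Sult1d1, at 11.25, but not by the brighter one, and the other 4 members had other animals lowest in that group.

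Sult5a1, a little studied sulfotransferase, was the only member that fell in all 4 pairwise comparisons. The progeroid restricted livers had log2 values of 4.60, 5.66, 5.13, 5.06 and 4.84, and the progeroid control livers had 5.41, 6.49, 6.03, 6.02 and 5.76. The wild type restricted livers had 6.95, 6.98, 6.50, 6.13 and 6.49, and the wild type control livers had 7.96, 7.88, 8.98, 8.73 and 8.08. The wild type control livers were above every other liver, and the progeroid restricted livers held the 4 lowest values. Restriction lowered Sult5a1 by 1.85-fold in progeroid mice (-0.89 ± 0.24 SE, adjusted p = 0.0179, with overlap) and by 3.29-fold in wild type mice (-1.72 ± 0.24, adjusted p = 2.67e-05). Progeroid livers were lower by 2.38 ± 0.24 on the control diet and by a factor of 2.93 on restricted food (-1.55 ± 0.24, adjusted p = 0.000111). The difference between the diet effects was 0.83 ± 0.34 (95% interval 0.13 to 1.53), and it did not pass after adjustment (adjusted p = 0.254). The diet call in progeroid mice was lost without restricted animal 362 (adjusted p = 0.0535) or control animal 323 (adjusted p = 0.0599).

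The 250 bases before the start of Sult5a1, at chr8:123158281-123158530 on the minus strand (GRCm38.p6, RefSeq), are shown as those of the member that moved the opposite way with diet.
Sult5a1: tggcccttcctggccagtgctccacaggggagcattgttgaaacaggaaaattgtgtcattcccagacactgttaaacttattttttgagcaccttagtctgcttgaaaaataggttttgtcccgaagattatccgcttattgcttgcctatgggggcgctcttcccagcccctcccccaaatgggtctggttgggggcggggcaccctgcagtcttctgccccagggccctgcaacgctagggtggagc
The letters of the 4 motifs were not in this window, which says nothing about the factors.

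Sult1a1, the phenol sulfotransferase, which conjugates simple phenols and drugs such as paracetamol, rose with restriction by small amounts that exceeded the spread between animals. The progeroid restricted livers had 12.95, 13.16, 13.10, 12.99 and 12.97, and the progeroid control livers had 12.76, 12.55, 12.69, 12.55 and 12.73. In wild type restricted livers the values were 12.99, 12.85, 12.89, 12.89 and 13.02, and the wild type control livers had 12.48, 12.50, 12.47, 12.37 and 12.49. No restricted liver was as low as any control diet liver of either genotype. The rise was 1.30-fold in progeroid mice (0.38 ± 0.06 SE, adjusted p = 0.000385) and 1.38-fold in wild type mice (0.46 ± 0.06, adjusted p = 1.31e-05), and the difference between these effects was -0.09 (95% interval -0.26 to 0.09, adjusted p = 0.71). On restricted food the genotypes overlapped (0.11, 95% interval -0.017 to 0.23, adjusted p = 0.244), and with the control diet progeroid livers were higher by 0.19 ± 0.06 (adjusted p = 0.0413). That last call did not hold when arrays were centred on their medians (0.091, adjusted p = 0.285), nor without any 1 of progeroid animals 321, 325 and 327 or of wild type animals 401 to 405, with adjusted p up to 0.106.

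Sult1d1, which in mouse sulfonates dopamine and other catecholamines, also rose in both genotypes. By its brighter probe set the progeroid restricted livers had 11.83, 12.20, 12.29, 11.85 and 11.90, and the progeroid control livers had 11.70, 11.35, 11.52, 11.55 and 11.79. Restricted wild type livers had 12.03, 12.06, 11.90, 12.05 and 12.14, and the wild type control livers had 11.49, 11.06, 10.67, 11.23 and 10.86. The restricted livers of the 2 genotypes overlapped, and wild type control livers were lowest on average. Restriction raised it by 0.43 ± 0.13 in progeroid mice (adjusted p = 0.0295) and by 0.98 ± 0.13 in wild type mice (adjusted p = 1.30e-05), without overlap in either. Progeroid livers on the control diet were higher by 0.52 ± 0.13 (adjusted p = 0.00973, with overlap), and on restricted food the difference was -0.02 (95% interval -0.29 to 0.24, adjusted p = 0.935). The difference between the diet effects was -0.54 ± 0.18 and did not pass (adjusted p = 0.153). The second probe set gave the same directions in every pairwise comparison, with 0.61 in progeroid and 1.33 in wild type mice for restriction. Its difference between the diet effects was -0.73 (95% interval -1.11 to -0.34) and did not pass (limma over all probe sets, adjusted p = 0.0676). By this probe set the genotypes did not overlap on the control diet (0.67, adjusted p = 0.00251). The progeroid diet call by the brighter probe set was lost without restricted animal 365 or 366 or control animal 323, 325 or 326, with adjusted p up to 0.0867.

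Sult1c2, a member of the Sult1 branch, was lower in progeroid livers on both diets, and its diet differences did not pass. The progeroid restricted livers had 6.81, 7.02, 7.37, 6.98 and 7.15, and the progeroid control livers had 6.67, 6.62, 6.44, 6.63 and 6.89. The wild type restricted livers had 8.65, 7.65, 7.18, 7.48 and 7.75, and the wild type control livers had 7.23, 7.66, 7.64, 7.36 and 7.23. On the control diet the genotypes did not overlap, and on restricted food the lowest wild type animal lay below the highest progeroid animal. Progeroid livers were lower by 0.77 ± 0.19 on the control diet (adjusted p = 0.00897) and by 0.68 ± 0.19 on restricted food (adjusted p = 0.0146). Without wild type restricted animal 421, the highest of all, the second difference was -0.45 (adjusted p = 0.0198), and with only the 2 restricted groups in the fit it was not called (adjusted p = 0.0543). The diet differences were 0.41 in progeroid mice (95% interval 0.025 to 0.80, adjusted p = 0.167) and 0.32 in wild type mice (95% interval -0.07 to 0.70, adjusted p = 0.252), which was 0.091 without animal 421.

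Sult1b1, which sulfonates thyroid hormones, was not called in any of the 5 comparisons. Its values ran from 8.69 to 9.18 in progeroid restricted, from 8.62 to 9.03 in progeroid control, from 8.28 to 9.21 in wild type restricted and from 8.36 to 8.85 in wild type control livers. All 4 groups overlapped. The genotype differences were 0.24 on the control diet (95% interval -0.05 to 0.53) and 0.28 on restricted food (95% interval -0.01 to 0.57). The diet differences were 0.07 in progeroid mice (95% interval -0.22 to 0.37) and 0.04 in wild type mice (95% interval -0.26 to 0.33).

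The order of the group means differed among the members. For Sult1e1, Sult2a2 and Sult3a1 it was wild type restricted, progeroid restricted, progeroid control and wild type control from high to low. In these 3 genes the values of neighbouring groups overlapped, except progeroid control above wild type control in Sult1e1 and progeroid restricted above progeroid control in Sult3a1. Sult1d1 had the same order, and its only step without overlap was progeroid restricted above progeroid control. For Sult1a1 it was progeroid restricted, wild type restricted, progeroid control and wild type control, and only the first 2 of these overlapped. Sult1c2 had both wild type groups above both progeroid groups, and each neighbouring pair overlapped. For Sult5a1 the order was wild type control, wild type restricted, progeroid control and progeroid restricted, and only the first step was without overlap.

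The genes most like 3 of the members over the 20 livers were named by Pearson's correlation at the gene level, as a description. Slc16a5, a monocarboxylate transporter family member (r = 0.939), Sbsn (0.924) and Mrpl23, a mitochondrial ribosomal protein gene (0.922), followed Sult1e1. Arrdc4 (0.943), Rsph4a (0.936) and Zfp560 (0.931) followed Sult3a1. Ces1f, a carboxylesterase (0.937), Serpina12 (0.914) and Epb41l4b (0.913) followed Sult5a1. The 20 livers fall into the 4 groups, so the correlated values share the differences between groups.

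Of 13 other cytosolic sulfotransferases 5 had a probe set of their own, and only Sult2a8, a mouse liver enzyme that sulfonates bile acids, passed in any comparison without centring. It averaged 12.42 ± 0.24 (SD) in progeroid restricted and 12.90 ± 0.05 in progeroid control livers, and 11.51 ± 0.44 in wild type restricted and 12.88 ± 0.05 in wild type control livers. Restriction lowered it by 0.48 ± 0.15 in progeroid mice (adjusted p = 0.0376) and by 1.37 ± 0.15 in wild type mice (adjusted p = 1.50e-06). The diet effect differed by 0.89 ± 0.21 (adjusted p = 0.0365, and 0.0533 after centring), and on restricted food progeroid livers were higher by 0.90 ± 0.15 (adjusted p = 0.00021). The other 4 genes had group means between 2.65 and 3.96, within the range of the kidney genes, so a change in them could go unseen. After centring 3 of these 4 were lower in progeroid livers on restricted food, at this dim level.

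Of 15 measured genes that supply PAPS or handle sulfate, 2 rose and 1 fell with restriction in progeroid mice, and 4 rose and 2 fell in wild type mice (4 and 0 after centring). The shares of all genes called for diet were 12.0% in progeroid and 22.5% in wild type mice. Between genotypes they were 11.0% on the control diet and 17.2% on restricted food. Papss2, which makes PAPS, averaged 11.03 ± 0.09 (SD) in progeroid restricted and 10.46 ± 0.13 in progeroid control livers, and 11.03 ± 0.26 in wild type restricted and 10.39 ± 0.21 in wild type control livers. It rose by 0.57 ± 0.11 (adjusted p = 0.00197) in progeroid and by 0.64 ± 0.11 (adjusted p = 0.000296) in wild type mice. Its paralogue Papss1 was not called in any comparison, except after centring, when it was lower in progeroid livers on restricted food (-0.40, adjusted p = 0.031). Slc26a1, a sulfate transporter of hepatocytes, fell by 0.69 ± 0.13 in progeroid mice (adjusted p = 0.0012) and by 0.35 ± 0.13 in wild type mice (adjusted p = 0.0479, and 0.0685 after centring). Slc35b3, which carries PAPS into the Golgi, was higher in progeroid than in wild type livers on the control diet by 0.50 ± 0.10 (adjusted p = 0.00335) and rose with restriction in wild type mice by 0.50 ± 0.10. It was the only gene of the list that passed between genotypes on that diet, and after centring Ethe1 (adjusted p = 0.0345) and Cdo1 (adjusted p = 0.0174) also passed, both lower. On restricted food 2 genes of the list were higher and 2 lower in progeroid livers (1 and 6 after centring), among them the sulfate transporter Slc26a2 (0.47 ± 0.10) and the mitochondrial sulfur dioxygenase Ethe1 (-0.89 ± 0.18). Slc26a2 was dim, with group means between 3.61 and 4.08, beside 2.46 to 4.06 for the kidney genes. In the difference of the diet effects 0 of the 15 passed in limma, and 2 had an unadjusted p under 0.05.

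**Figure D4:**
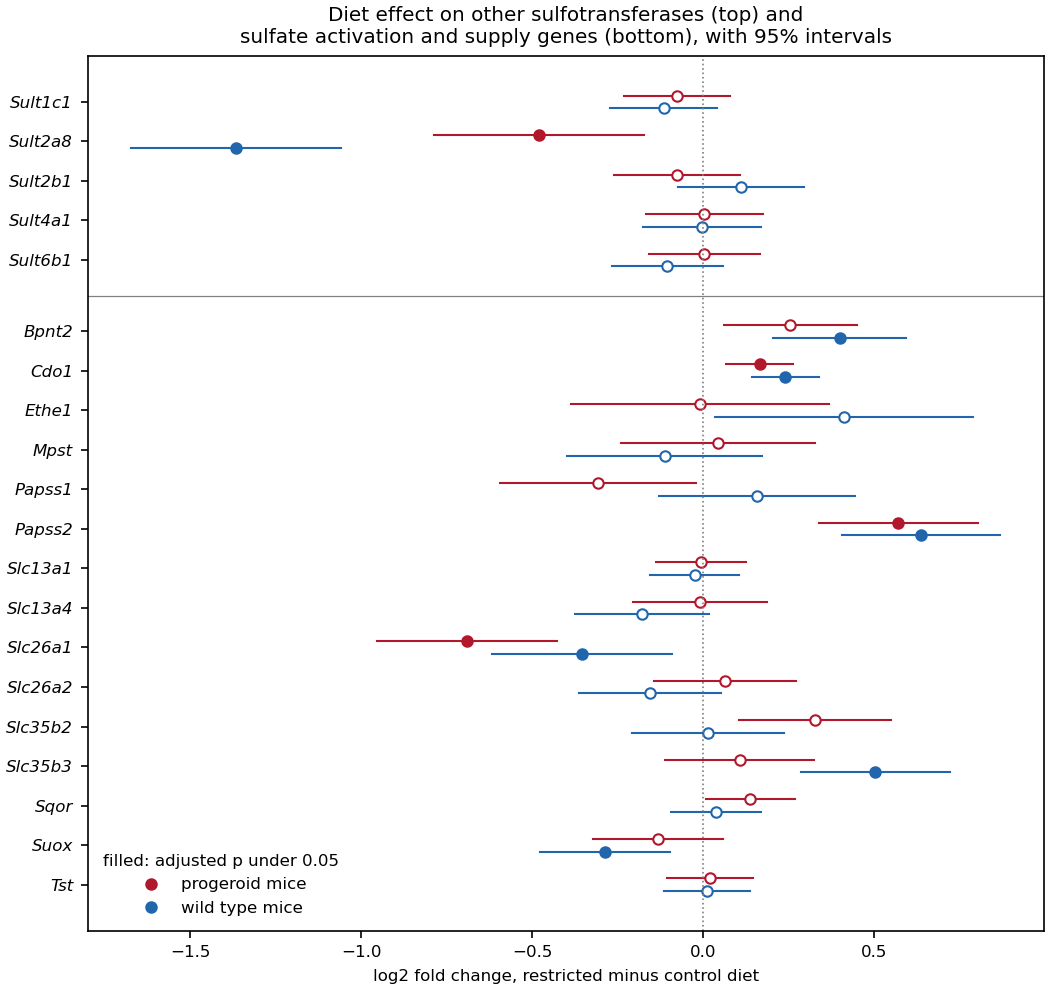
Log2 diet effect (x axis, restricted minus control diet) with its 95% interval in progeroid mice (red, upper mark of each gene) and wild type mice (blue, lower mark) for the 5 other cytosolic sulfotransferases (top) and the 15 genes of PAPS supply and sulfate handling (bottom). Filled marks have an adjusted p under 0.05: Sult2a8 lies at -0.48 in progeroid and -1.37 in wild type mice, and Papss2 at 0.57 and 0.64.

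Glucuronidation is the alternative route for many of the same substrates. Of 12 measured genes in its list, 1 rose and 5 fell with restriction in each genotype (0 and 6 after centring in progeroid mice). The list includes Ugt3a1 and Ugt3a2, of a family that adds other sugars, so they are not glucuronidation enzymes. Both were among the genes that fell in each genotype. Of all genes 12.0% passed for diet in progeroid and 22.5% in wild type mice. Between genotypes 11.0% passed on the control diet and 17.2% on restricted food. Ugt3a1 averaged 8.47 ± 0.34 (SD) in progeroid restricted and 9.78 ± 0.09 in progeroid control livers, and 9.47 ± 0.34 in wild type restricted and 10.74 ± 0.14 in wild type control livers. With the control diet 1 gene was higher and 1 lower in progeroid livers, Ugdh, which makes UDP-glucuronic acid (0.65 ± 0.12), and Ugt3a1 (-0.97 ± 0.15). On restricted food 3 were higher and 3 lower. After centring 1 was higher and 2 were lower on the control diet, and 2 were higher and 5 lower on restricted food. With or without it, 0 of the 12 passed in the difference of the diet effects in limma, 1 at an unadjusted p under 0.05.

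Of 17 measured nuclear receptors and other regulators of conjugation genes, 2 rose and 1 fell with restriction in progeroid mice (2 and 3 after centring), and 3 rose and 2 fell in wild type mice. The shares of all genes called for diet were 12.0% in progeroid and 22.5% in wild type mice. Between genotypes they were 11.0% on the control diet and 17.2% on restricted food. Nr1i3, the constitutive androstane receptor, rose by 1.0 ± 0.16 in progeroid (adjusted p = 0.00033) and by 0.55 ± 0.16 in wild type mice (adjusted p = 0.0155). Between genotypes 2 were higher and 3 lower in progeroid livers on each diet, but after centring 2 were higher and 4 lower on the control diet and 0 higher and 6 lower on restricted food by limma. Without centring Nfe2l2, a regulator of antioxidant genes, was higher by 0.65 ± 0.12 on the control diet and Hnf4a lower by 0.37 ± 0.07. In the difference of the diet effects 1 gene, Foxa2, passed (-1.03).

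Genes of liver sex bias moved beside the members, and several members are themselves known for such bias. For comparison, 12.0% of all genes passed for diet in progeroid and 22.5% in wild type mice. Between genotypes the share was 11.0% on the control diet and 17.2% on restricted food. Of 9 measured genes known to be higher in male liver, all 9 fell with restriction in both genotypes, with a median change of -1.68 in progeroid and -2.31 in wild type mice. Of 11 genes known to be higher in female liver, 9 rose in each genotype, with a median of 1.70 in progeroid and 4.20 in wild type mice. On restricted food 7 of the male-biased genes were higher in progeroid than in wild type livers (6 after centring), and 2 of the female-biased genes were higher and 4 lower (2 and 6 after centring). Among freely fed mice 0 of the male-biased genes passed in limma (1 at an unadjusted p under 0.05) and 2 of the female-biased genes were lower in progeroid livers. In the difference of the diet effects 4 male-biased genes passed upward and 2 female-biased genes downward. Of 20 measured steroid-metabolising enzymes, 2 rose and 8 fell in progeroid mice, and 3 rose and 10 fell in wild type mice. In progeroid livers 3 of the 20 were higher and 1 lower on the control diet, 7 were higher and 2 lower on restricted food (after centring 2 and 3, and 5 and 6), and 1 passed in each direction in the difference of the diet effects. These enzymes are not a set apart from the sex-biased genes. Hsd3b5, which passed upward, was also counted among the male-biased genes, and Cyp17a1, which passed downward, among the female-biased genes. Cyp17a1, the steroid 17-hydroxylase, averaged 7.39 ± 1.27 (SD) in progeroid restricted, 5.69 ± 1.0 in progeroid control, 11.11 ± 0.24 in wild type restricted and 6.26 ± 0.66 in wild type control livers. Its diet effect was smaller in progeroid mice by 3.15 ± 0.70 (adjusted p = 0.0274), and on the control diet it did not differ measurably between genotypes (-0.56, adjusted p = 0.541).

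Some markers of other cells moved with genotype. Of all genes 11.0% passed between genotypes on the control diet and 17.2% on restricted food. For diet 12.0% passed in progeroid and 22.5% in wild type mice. A count near these shares says little about the cell type. Of 7 Kupffer cell markers 2 were higher in progeroid livers on the control diet and 4 on restricted food, and their summed signal (log2 of the sum) ran from 11.82 to 12.62 in progeroid restricted, 11.92 to 12.52 in progeroid control, 11.21 to 11.78 in wild type restricted and 11.67 to 12.04 in wild type control livers. Of 8 stellate cell markers 3 were higher on each diet, and their sums ran from 12.09 to 12.53, 12.27 to 12.54, 12.06 to 12.31 and 11.69 to 12.06 in the same order of groups. In the stellate list as a whole 3 of the 8 averaged under 5. Of 5 neutrophil markers 2, S100a8 and S100a9, were higher on each diet, with sums from 6.80 to 7.68, 6.93 to 7.46, 6.23 to 6.56 and 6.14 to 6.28. The other 3, Ngp, Camp and Mpo, had group means between 3.40 and 3.66, within the range of the kidney genes. With restriction 2 Kupffer markers fell in wild type mice, 1 stellate marker fell in progeroid mice, and 2 stellate markers rose and 2 fell in wild type mice. Of 6 endothelial markers 1 was higher in progeroid livers on restricted food and 1 fell with restriction in wild type mice. Of 3 intestinal markers only Fabp2 passed, with 0.66 between genotypes on restricted food and -1.03 with restriction in wild type mice. In this list 2 of the 3 averaged under 5 and the brightest averaged 11.59, so it says little about intestinal cells. Without centring 0 of the 5 bile duct, 4 kidney and 2 fat cell markers passed in limma, and all averaged under 5. At an unadjusted p under 0.05, 1 bile duct and 2 kidney markers were lower with restriction in progeroid mice and 1 bile duct marker was lower in the difference of the diet effects. Of 8 hepatocyte markers 1 was lower in progeroid livers on each diet, and 1 rose and 1 fell with restriction in each genotype, while their sum stayed between 16.75 and 16.85. Centring left the neutrophil and Kupffer markers that were higher between genotypes at the same counts, gave 2 stellate markers higher on each diet, and left 0 endothelial markers higher on restricted food in limma. With it 7 hepatocyte, 3 neutrophil, 2 bile duct, 2 kidney, 2 endothelial, 1 Kupffer and 1 fat cell marker were lower on restricted food in progeroid livers. On the control diet 2 hepatocyte, 2 endothelial and 1 fat cell marker were lower and 1 endothelial marker higher, and in progeroid mice 1 Kupffer and 1 endothelial marker fell with restriction. The signal of Gapdh probe sets near its 3′ end exceeded that near its 5′ end, a sign of RNA degradation, by 0.81 ± 0.24 (SD) in progeroid restricted, 0.93 ± 0.28 in progeroid control, 0.76 ± 0.12 in wild type restricted and 0.66 ± 0.06 in wild type control livers. The part of these markers and of RNA quality in the values of the members was not tested.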

How the data were processed

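Liver RNA of 20 mice was measured on 1 array per animal, and each array was placed in its group by the source name in the labels. The authors deposited log2 values, which RMA produced per the submitters' processing notes. The sources used here give neither an RMA version nor a definition of the probe sets. Because RMA gives all arrays the same distribution, a general shift between groups would not be seen, and folds near the dim end are understated. Array medians lay between 4.17 and 4.21. Precision is limited by the number of arrays.

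Probe sets took their names from the annotation of the platform: 28898 had 1 symbol, 551 had several and 15588 had none here. The 104 control probe sets were dropped. For each of 17097 genes the probe set with the highest mean was kept, without a filter on dim genes. The limma fit (version 3.58.1, R 4.3.3) used all 20 arrays and 1 mean for each group, with 5 contrasts, two-sided tests and Benjamini-Hochberg adjustment over all genes of a contrast. The second Sult1d1 probe set comes from a fit of all 45037 probe sets. The fit was tested on simulated data. Intervals are 95% intervals of the moderated fit. The animals were separate mice, so the spread is between animals.

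The members and the gene lists were chosen with earlier results of these data known. Named genes were the 8 members, genes of each list with the smallest adjusted p (at most 2 per contrast, of which some are printed), the 3 genes most correlated with each of the 3 members of widest group means, and the chromosomal neighbours. Papss1, Sumf1 and Ugt3a2 were named outside this rule, after their values were seen. Ngp, Camp, Mpo, Alb and Apoa1 were also named outside it, as genes of the marker lists. Ercc1, Eif2s3y, Xist and Gapdh were named as checks of genotype, sex and RNA quality. RefSeq upstream sequences of assembly GRCm38.p6 were found for 7 of the 8 members. Alternatives were other choices of probe set, centring, a filter on dim genes, other variance models, array weights, fits of 2 groups and leaving out each animal.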

Additional observations from a re-analysis of the deposited data

Results flagged for a closer look

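In the diet response, Sult1e1 differed between the genotypes by a test of the difference itself, -3.84 ± 0.72 SE (limma, adjusted p = 0.0113), and the value stayed between -4.23 and -3.46 when each of the 20 animals was left out, with adjusted p up to 0.0284. Progeroid restricted livers averaged 9.46 and progeroid control livers 7.69, against 10.05 in wild type restricted and 4.44 in wild type control livers, the last near the dim end of the scale.

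In 3 cases 1 animal stood apart from the other 4 of its group, out of 36 pairs of a probe set and a group examined, by a gap that chance alone gives in about 5% of groups. Wild type restricted animal 425 had a Sult2a2 level of 7.54, with the nearest animal at 4.95. Wild type restricted animal 423 had a Sult3a1 level of 6.41, with the nearest at 8.73. Wild type control animal 404 had a Sult1a1 level of 12.37, with the nearest at 12.47.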

How the results depend on the processing

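Of 1102 values of the 8 members under the alternatives, 1056 kept direction and call, 27 lost the call, 3 gained it and 16 changed sign. Testing all 45037 probe sets gave 3127 and 5174 probe sets called for genotype (control diet, restricted food) and 3715 and 8544 for diet (progeroid, wild type). These count probe sets and cannot be set against counts of the 17097 genes. Centring gave 3562 and 7671 genes for genotype, and array weights gave 363 genes for the difference of the diet effects. For Sult1a1 between genotypes on the control diet the call was lost with all probe sets (0.19), centring (0.091), array weights (0.16) and 2 groups only (0.19). Centring turned Sult2a2 on the control diet to -0.034, Sult1a1 on restricted food to -0.064 and the Sult1b1 difference of diet effects to -0.030. With 2 groups only, the restricted-food calls of Sult1c2 (-0.68) and Sult3a1 (-2.16) and the progeroid diet call of Sult1e1 (1.77) were lost and Sult1c2 was called in that comparison (0.41); with a trend and robust estimation Sult1e1 (1.77) also lost it. Leaving out each animal gave ranges of 0.17 to 0.22 for Sult1a1 (genotype, control diet), 0.19 to 0.42 for Sult1b1 and -0.090 to 0.025 for Sult1d1 (genotype, restricted food), 0.34 to 0.48 for Sult1c2, 0.37 to 0.49 for Sult1d1, 1.38 to 2.14 for Sult1e1 and -1.04 to -0.75 for Sult5a1 (diet, progeroid), -0.10 to 0.13 for Sult1b1 (diet, wild type), and -0.054 to 0.18 for Sult1b1 and -0.045 to 0.32 for Sult1c2 (difference of diet effects). Over these fits 103 to 490 genes were called in the difference of the diet effects, the fewest without animal 423 and the most without animal 421. Sult1b1 was called on restricted food without animal 422 (adjusted p = 0.0189), and Sult1c2 for diet in progeroid mice without animal 421 (adjusted p = 0.033). The causes were not tested. The filter on dim genes left out Sult2a2, and the alternative without shared-probe suffixes left out Sult1a1. No paired analysis was possible because the 4 groups share no animal numbers. The dim control diet values of Sult2a2 and Sult3a1, and the wild type control values of Sult1e1 near the dim end, limit their folds.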

Other observations

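Gal3st1, which makes the membrane lipid sulfatide, averaged 6.76 ± 0.36 (SD) in progeroid restricted and 5.15 ± 0.29 in progeroid control livers, and 4.23 ± 0.22 in wild type restricted and 4.21 ± 0.29 in wild type control livers. It rose by 1.61 ± 0.17 (SE) with restriction in progeroid mice (limma, adjusted p = 6.43e-06), and the wild type change was 0.02 ± 0.17. Both wild type means lay near the dim end of the scale (kidney genes up to 4.06), where a change could go unseen. The difference of the diet effects was 1.58 ± 0.24 (adjusted p = 0.00348). It was the only one of 23 measured Golgi and matrix sulfotransferases to pass that test. On the control diet it was the only one of them higher in progeroid livers and 0 were lower in limma (2 at an unadjusted p under 0.05), and on restricted food 1 was higher and 1 lower. After centring 1 was higher and 4 were lower on the control diet, and 1 was higher and 11 were lower on restricted food. With restriction 3 of the 23 rose and 1 fell in progeroid mice, and 5 rose and 2 fell in wild type mice (5 and 1 after centring). The shares of all genes called for diet were 12.0% in progeroid and 22.5% in wild type mice. Between genotypes they were 11.0% on the control diet and 17.2% on restricted food.

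Arsa, the lysosomal sulfatase that takes sulfatide apart, averaged 8.04 ± 0.28 (SD) in progeroid restricted and 8.11 ± 0.21 in progeroid control livers, and 7.08 ± 0.24 in wild type restricted and 8.81 ± 0.07 in wild type control livers. Restriction lowered it in wild type mice by 1.73 ± 0.13 (SE), the progeroid change was -0.07 ± 0.13, and the difference was 1.65 ± 0.18 (adjusted p = 7.67e-05). Of 12 measured genes in the list of sulfatases, which includes Sumf1, an activator of sulfatases and not itself 1 of them, 1 rose and 0 fell in progeroid mice, and 3 rose and 1 fell in wild type mice. Between genotypes 2 were higher and 1 lower in progeroid livers on the control diet, and 2 were higher and 3 lower on restricted food. After centring 2 were higher and 5 lower on the control diet, and 2 were higher and 6 lower on restricted food. Without centring, 12.0% of all genes passed for diet in progeroid and 22.5% in wild type mice. Between genotypes 11.0% passed on the control diet and 17.2% on restricted food.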
